A study of Mus musculus with 19 samples.

Results

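The comparison described here is the step in Thy, a surface antigen encoded by Thy1. It lies between a pair of skeletal progenitor populations sorted from mouse limbs, whose names are otherwise alike. Its members were the arrays that the population field of the labels places in Thy+6C3-CD105+ (3 arrays) or in Thy-6C3-CD105+ (3 arrays), which makes 6 of the 19 arrays in the series. Both groups came from the fore and hind limbs of mice at postnatal day 3. The labels give the genotype as wild type, while the growth protocol speaks of GFP-labelled pups. Both groups were negative for CD45, Ter119, Tie2 and 6C3 and positive for integrin alpha V and CD105. Thy was thus the only antigen in the population names that set them apart. CD45 marks leukocytes, Ter119 red cells and Tie2 endothelial cells; 6C3 is the product of Enpep and CD105 that of Eng. Ter119 is not among the antibodies that the staining protocol lists. Each sample was a litter pooled before digestion with collagenase and sorting, and the RNA went through amplification, per the labels a repeated one, and onto an Affymetrix mouse array. Nothing in the labels says that the 3 arrays of a group came from separate litters. The p-values and standard errors thus measure only the spread between arrays of a population, which may be technical. That spread was estimated over all 18 neonatal arrays in 6 populations and not from the 6 compared arrays alone. Values are quantile normalized log2 levels of 1 probe set per gene, a difference is always Thy+ minus Thy- with its standard error from the fit, and a gene was called at a Benjamini-Hochberg adjusted p under 0.05 over all genes in limma. A difference of 1 is a doubling, and the median gene had a mean level of 6.76, with the 25th percentile at 5.17.

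Thy1 is a small glycoprotein held on the cell surface by a lipid anchor, used to sort fibroblasts and other mesenchymal cells as well as T cells and neurons. In the limb at birth the growing skeleton is largely cartilage, whose cells follow Sox9 with Sox5 and Sox6, lay down collagen II fibrils and aggrecan, and later enlarge under the control of Indian hedgehog and parathyroid hormone-related protein. Around it lie the perichondrium, tendon, fibrous tissue and vessels, whose walls carry mural cells, that is pericytes and smooth muscle cells, known for Rgs5, Notch3 and contractile proteins. In studies of this lineage, CD105+ cells without Thy and 6C3 are known as progenitors of bone, cartilage and stroma.

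In Thy+ cells all 7 measured cartilage fibril collagens and 23 of 25 cartilage matrix genes fell, while 24 of 35 mural genes, 14 of 32 genes of fibrous collagens and elastic fibres and 12 of 42 limb mesenchyme transcription factors rose. These lists were drawn up with earlier results of these data known, so their counts are a description and not a test. Of all 18193 genes tested, 1211 were called, which is 6.66%; 733 rose (4.03%) and 478 fell (2.63%). Changes of at least 2-fold were found for 494 called genes that rose and 340 that fell. At 8-fold or more, 19 called genes rose and 25 fell. The median difference over all genes was -0.02. Without Thy- replicate 3 the number called was 781, and in the 2 arrays of each population with high poly-A control signal alone it was 761. A fit of the 6 arrays alone called 1813 genes and one with array weights 2889, and counts on some lists below were higher there. In all, 227 called genes were picked by the naming rule or chosen after their values were seen. Of these, 52 had a difference that moved by over 1.5 times when all probe sets of a gene, dim ones included, were averaged. Without probe sets that the array names as shared 16 did. Such values are given with the genes described. The fall reached well beyond matrix proteins and took in cartilage transcription factors, an FGF receptor and immediate early genes. Basement membrane and complement genes were part of the rise. Wnt genes moved both ways, with 5 rises and 4 falls among the antagonists. Chemokine, cytokine and niche genes had 7 rises and 1 fall, with a median difference of 0.09. These are bulk samples, in which fewer cells of a type and less RNA per cell cannot be told apart. The plot of differences against levels shows called genes at nearly all levels.

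**Figure D1:**
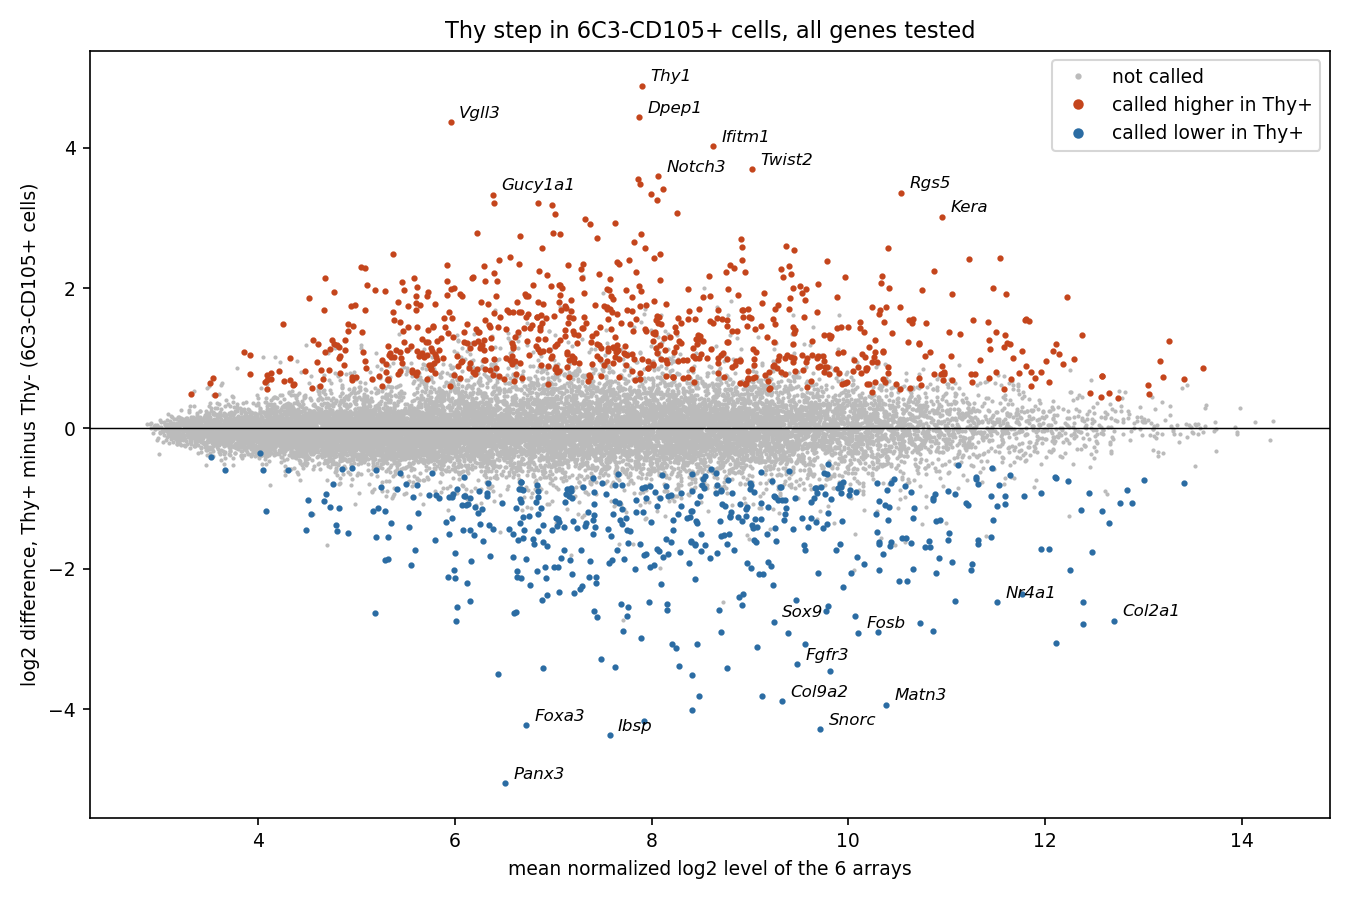
Difference between Thy+ and Thy- cells (log2, y axis) against the mean level of the 6 arrays (log2, x axis), 1 point per gene, with called genes in colour. Thy1, Dpep1 and Vgll3 lie at the top and Panx3, Ibsp and Snorc at the bottom.

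The sorted antigen separated the groups as labelled. Thy1 had levels of 10.37, 10.47 and 10.19 on the Thy+ arrays, against 4.96, 5.52 and 5.91 on the Thy- arrays, a difference of 4.88 ± 0.23 (adjusted p = 1.67e-09), the largest rise of any called gene. Levels of Eng were 8.75, 8.38 and 8.34 in Thy+ cells and 8.39, 8.83 and 8.70 in Thy- cells and overlapped (-0.15 ± 0.30, adjusted p = 0.904). The difference of the integrin gene Itgav did not pass the test either (0.23 ± 0.25, adjusted p = 0.786). Enpep, whose product 6C3 was absent from both gates, had 7.71, 8.42 and 8.83 in Thy+ cells, against 7.57, 7.39 and 6.86 in Thy- cells, and the difference of 1.05 ± 0.47 did not pass the test (adjusted p = 0.267). All 3 Thy+ arrays lay above all 3 Thy- arrays for this gene, as they did for 14.4% of all genes. CD200, which was stained too but does not enter the population names, is encoded by Cd200. Its gene fell, with levels of 7.30, 7.43 and 7.50 in Thy+ cells and 9.29, 9.06 and 9.18 in Thy- cells (-1.77 ± 0.40, adjusted p = 0.00927); with the high poly-A arrays alone it was not called (-1.77, adjusted p = 0.132). Tek encodes Tie2, against which both populations were gated, and had 6.10, 5.70 and 6.06 in Thy+ cells, against 4.69, 5.01 and 4.83 in Thy- cells (1.11 ± 0.17, adjusted p = 0.000349). These Tek levels lay under that of the median gene on every array.

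Markers of other cell types were mostly low in both populations. Of 16 endothelial markers, 2 rose, 1 fell and 11 had means under the median gene in both groups; their average level was 5.95 to 6.13 on Thy+ arrays and 5.71 to 6.19 on Thy- arrays. Pecam1 and Cdh5, adhesion molecules of endothelium, were not called: Pecam1 had a mean of 4.61 ± 0.39 in Thy+ cells, against 5.14 ± 0.67 in Thy- cells (SD, n = 3 each), and Cdh5 5.12 ± 0.04, against 5.26 ± 0.17. Esam, an adhesion molecule of endothelium and of pericytes, rose by 2.32 ± 0.18 (adjusted p = 3.22e-07). Sox18, an endothelial transcription factor, rose by 1.43 ± 0.32 (adjusted p = 0.00845), a call lost without replicate 1 of either population (1.20, adjusted p = 0.0553 without the Thy+ array; 1.22, adjusted p = 0.0552 without the Thy- array). Flt1, a VEGF receptor of endothelium that is counted below with the vessel growth factors, rose too (1.05 ± 0.24, adjusted p = 0.00941), a call lost without Thy+ replicate 1 (0.93, adjusted p = 0.0536) and with the high poly-A arrays alone (0.99, adjusted p = 0.224), and Tek rose as given above. The call of Sox18 was lost with the high poly-A arrays as well (adjusted p = 0.0811). Erg, which articular chondrocytes also express, fell (-1.11 ± 0.22, adjusted p = 0.00277; -0.72 averaged over its probe sets). Of 16 leukocyte markers, 1 fell and 13 lay under the median gene in both groups, with average levels of 5.42 to 5.85 on Thy+ and 5.70 to 5.94 on Thy- arrays. None of 4 erythroid and none of 12 keratinocyte markers was called. Skeletal muscle markers averaged 5.07 to 5.29 on Thy+ and 5.11 to 5.54 on Thy- arrays, with 1 of 15 called in each direction, and Schwann cell markers 7.02 to 7.29 on Thy+ and 6.71 to 7.12 on Thy- arrays, with 1 of 8 called in each direction. The call of the leukocyte list was lost without Thy- replicate 1 or Thy+ replicate 2 or 3. In the muscle list the rise was lost without any 1 of the 6 arrays other than Thy- replicate 3, and the fall without Thy- replicate 3 or Thy+ replicate 2. Of the Schwann cell calls, the rise of Erbb3, a neuregulin receptor, was 1.37 ± 0.23 (adjusted p = 0.000651; 0.82 averaged over its probe sets), and the fall was lost without replicate 1 of either population, Thy- replicate 2 or Thy+ replicate 3. The part of such cells in the results below was not tested.

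The 15 largest falls among genes with groups that did not overlap were led by Panx3 and by genes of cartilage. Panx3, a channel protein of prehypertrophic chondrocytes and osteoblasts, had levels of 3.87, 4.14 and 3.94 in Thy+ cells, against 9.61, 8.64 and 8.84 in Thy- cells (-5.05 ± 0.31, adjusted p = 2.28e-08). This value rests on a probe set that the array names as shared between transcripts; with such probe sets left out, another probe set at a low level stood for the gene and gave 0.10 (adjusted p = 0.906), and the mean of its probe sets gave -1.83. Ibsp, bone sialoprotein, had levels of 5.43, 5.46 and 5.27 in Thy+ cells, against 10.07, 9.43 and 9.79 in Thy- cells (-4.37 ± 0.82, adjusted p = 0.00207), a call lost with the high poly-A arrays alone (-4.56, adjusted p = 0.054); its mean over probe sets gave -2.64. Snorc, a transmembrane proteoglycan of cartilage, stood at 7.42, 7.77 and 7.52 in Thy+ cells, against 12.18, 11.50 and 11.88 in Thy- cells (-4.28 ± 0.43, adjusted p = 4.35e-06). For each of these genes every Thy+ array lay more than 3 units below every Thy- array. Calml3, a calmodulin-like protein, fell by 4.16 and Scin, an actin-severing protein, fell by 4.00 on the log2 scale (adjusted p = 1.03e-07 and 6.04e-06). Meltf, the iron-binding surface protein melanotransferrin, had a difference of -3.81 ± 0.28 and Fbln7, a fibulin, one of -3.42 ± 0.27 (adjusted p = 1.35e-07 and 3.24e-07). Genes better known from nerve were among the largest falls too. Dcx, a microtubule protein of migrating neurons, had 4.69, 5.30 and 5.57 in Thy+ cells, against 8.77, 8.13 and 8.89 in Thy- cells (-3.41 ± 0.44, adjusted p = 5.4e-05). Ncmap, a protein of noncompact myelin, showed -3.51 ± 0.22 (adjusted p = 3.79e-08) and Car8, a carbonic anhydrase-related protein, -3.50 ± 0.39 (adjusted p = 1.14e-05). Averaged over its probe sets Dcx was at -1.31 and Car8 at -1.72; without shared probe sets Car8 was at -0.94.

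The largest rises after Thy1 mixed surface enzymes, transcription regulators and vessel wall genes. Dpep1, a dipeptidase anchored to the membrane, had levels of 10.49, 9.81 and 9.96 in Thy+ cells, against 5.54, 6.17 and 5.25 in Thy- cells (4.44 ± 0.34, adjusted p = 2.33e-07). Vgll3, a cofactor of TEAD transcription factors, had 8.15, 8.09 and 8.17 in Thy+ cells and 3.98, 4.09 and 3.25 in Thy- cells (4.36 ± 0.36, adjusted p = 5.21e-07), with the Thy+ arrays within 0.08 of each other. Twist2, a basic helix-loop-helix factor of mesenchyme, had 11.45, 10.51 and 10.63, against 7.13, 7.64 and 6.74 in Thy- cells (3.69 ± 0.30, adjusted p = 3.97e-07). These genes were picked among those without overlap of the groups. For each of them the lowest Thy+ array was above the highest Thy- array by more than 2 units. Ifitm1, an interferon-induced membrane protein, rose by 4.02 ± 0.38 (adjusted p = 2.44e-06). Aoc3, an amine oxidase of vascular smooth muscle and adipocytes, rose by 3.48 ± 0.49 (adjusted p = 0.000132), and Naalad2, a peptidase related to the folate hydrolase of prostate, by 3.41 ± 0.32 (adjusted p = 2.64e-06). Mgst1, a glutathione transferase of membranes, had a difference of 3.25 ± 0.39 (adjusted p = 2.48e-05), which without shared probe sets stood at -0.075 (adjusted p = 0.894) on another, dim probe set. Averaged over probe sets Mgst1 was at 1.59 and Naalad2 at 2.24, and without shared ones Naalad2 was at 1.07. The plot of levels by array sets 6 genes that rose above 6 that fell.

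**Figure D2:**
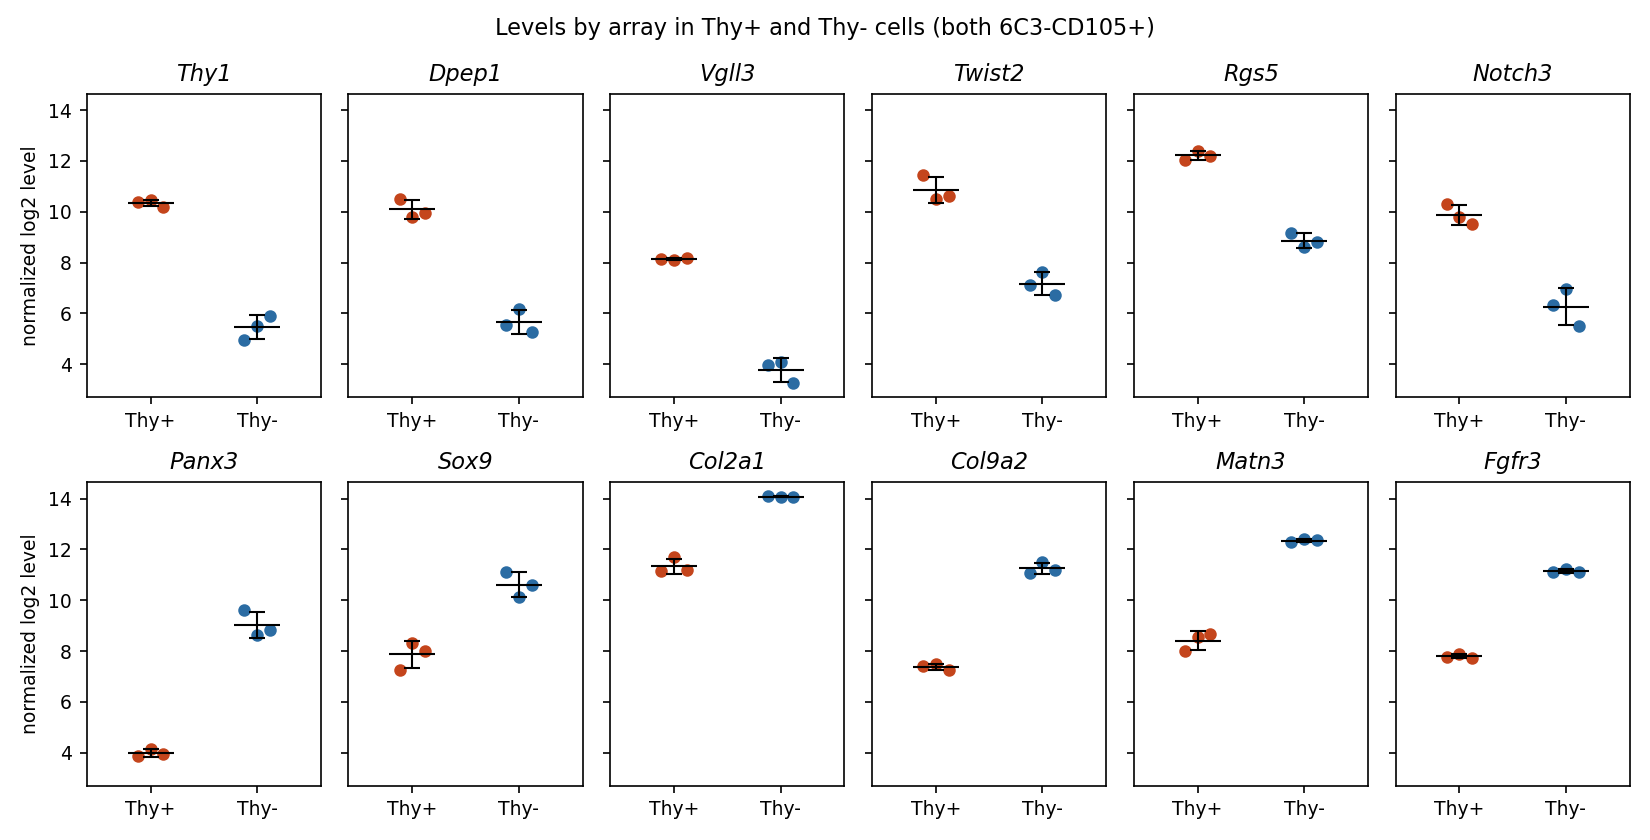
Normalized log2 level (y axis) of 12 genes on each array, 3 Thy+ and 3 Thy- arrays of 6C3-CD105+ cells; horizontal marks are means and bars 1 SD. The upper row (Thy1 to Notch3) is higher in Thy+ cells and the lower row (Panx3 to Fgfr3) lower. No panel shows overlap of the groups, but most of these genes were picked among genes without overlap.

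Promoters of a few of these genes are shown because the regulators that moved, Vgll3, Twist2 and the Sox factors, act with or as proteins that bind short DNA motifs. Each is the RefSeq sequence on GRCm38.p6 from 250 bases before to 50 after an annotated start, printed 5′ to 3′, all on the plus strand. Capitals mark the TEAD motif (GGAATG on either strand) in Vgll3 and Matn3, the E-box (CANNTG) in Rgs5 and Col9a2, and the SOX motif (AACAATG on either strand) in both annotated promoters of Epyc, in one of which it lies side by side with itself.
Vgll3, chr16:65814939-65815238: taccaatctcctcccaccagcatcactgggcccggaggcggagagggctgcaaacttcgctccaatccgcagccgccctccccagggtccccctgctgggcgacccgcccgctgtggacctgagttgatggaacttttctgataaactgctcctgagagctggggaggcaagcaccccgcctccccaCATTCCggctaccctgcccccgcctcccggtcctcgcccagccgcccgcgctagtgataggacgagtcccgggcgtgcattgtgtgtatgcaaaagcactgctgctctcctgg
Rgs5, chr1:169655251-169655550: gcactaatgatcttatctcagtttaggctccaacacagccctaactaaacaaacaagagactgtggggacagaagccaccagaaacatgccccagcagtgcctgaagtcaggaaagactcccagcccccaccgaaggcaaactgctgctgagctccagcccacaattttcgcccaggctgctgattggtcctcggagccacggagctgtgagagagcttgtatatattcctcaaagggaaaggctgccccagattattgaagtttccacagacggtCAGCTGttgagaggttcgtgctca
Matn3, chr12:8947679-8947978: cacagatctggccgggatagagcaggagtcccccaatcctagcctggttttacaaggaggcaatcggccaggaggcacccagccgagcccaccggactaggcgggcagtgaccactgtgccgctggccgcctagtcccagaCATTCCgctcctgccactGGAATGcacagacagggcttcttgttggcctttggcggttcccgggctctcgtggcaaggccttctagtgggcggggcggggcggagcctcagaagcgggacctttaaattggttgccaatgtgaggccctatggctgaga
Col9a2, chr4:121039316-121039615: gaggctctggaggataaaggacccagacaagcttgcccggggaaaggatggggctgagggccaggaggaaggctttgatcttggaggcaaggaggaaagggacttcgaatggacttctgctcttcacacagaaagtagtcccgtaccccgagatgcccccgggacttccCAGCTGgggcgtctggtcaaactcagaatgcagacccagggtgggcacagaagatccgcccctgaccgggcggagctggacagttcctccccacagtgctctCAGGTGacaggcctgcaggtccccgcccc
Epyc, chr10:97643818-97644117: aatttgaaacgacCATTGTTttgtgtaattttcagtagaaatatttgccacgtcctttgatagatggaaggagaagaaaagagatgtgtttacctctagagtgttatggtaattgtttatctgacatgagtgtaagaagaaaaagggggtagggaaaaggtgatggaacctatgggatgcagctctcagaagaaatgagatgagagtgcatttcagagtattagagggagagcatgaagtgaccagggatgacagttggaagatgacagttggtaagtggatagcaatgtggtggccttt
Epyc, chr10:97646853-97647152: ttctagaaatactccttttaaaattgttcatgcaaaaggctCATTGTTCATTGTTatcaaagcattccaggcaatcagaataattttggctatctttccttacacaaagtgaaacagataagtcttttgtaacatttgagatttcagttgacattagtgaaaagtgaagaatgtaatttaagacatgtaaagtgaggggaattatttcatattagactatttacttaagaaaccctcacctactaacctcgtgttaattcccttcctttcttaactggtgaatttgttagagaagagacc

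Shares of genes that hold each motif are given for description. A SOX motif was found in 3.52% of the 540 genes that rose and had a promoter in the table, in 2.67% of the 374 that fell and in 3.07% of all 14452 genes tested with one. The E-box was found in 70.2% of genes that rose, 69.5% of those that fell and 70.9% of all. The TEAD motif was found in 18.1% of genes that rose, 16.6% of those that fell and 15.3% of all. For the AP-1 motif TGANTCA the shares were 9.44%, 8.56% and 7.54%, for the RBPJ motif GTGGGAA 8.70%, 7.49% and 7.40%, and for TATAAA 13.3%, 11.8% and 11.5%, in the same order. Both strands were searched, and the RBPJ and TEAD motifs can share letters. None of 5 cartilage fibril collagen genes with a promoter held the SOX motif in this window. Of 35 mural genes, 21 had a promoter to search and the rest, Myh11 and Tagln among those without an entry, were not searched. Among the 21, 4 held the RBPJ motif and none the CArG box in this window. The CArG box was held by 1.58% of all genes. A match is a description of letters and not of binding.

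The fall of cartilage genes ran through structure and control. All 7 fibril collagens fell, with a median difference of -2.74. Col2a1, the main fibril collagen of cartilage, had levels of 11.16, 11.69 and 11.17 in Thy+ cells, against 14.11, 14.05 and 14.06 in Thy- cells (-2.74 ± 0.20, adjusted p = 1.15e-07). The level in Thy+ cells was still far above that of the median gene. The genes of the 3 chains of collagen IX, which coats those fibrils, all fell. Col9a2 had 7.40, 7.50 and 7.25 in Thy+ cells, against 11.08, 11.50 and 11.21 in Thy- cells (-3.88 ± 0.21, adjusted p = 7.4e-09). Col9a3 differed by -3.06 ± 0.25 (adjusted p = 4.89e-07) and Col9a1 by -1.76 ± 0.33 (adjusted p = 0.00204). A second probe set of Col9a1 gave -3.36 ± 0.33 and one of Col9a3 -2.52 ± 0.56, so the order of the chains depended on the probe set; averaged over probe sets, Col9a3 was at -1.92. Of the minor fibril collagens, Col11a2 differed by -3.07 ± 0.33 (adjusted p = 7.15e-06) and Col27a1 by -1.61 ± 0.27 (adjusted p = 0.000765). Col11a1 differed by -1.17 ± 0.27 (adjusted p = 0.0112), a call lost without Thy+ replicate 1 (-1.01, adjusted p = 0.0672) and with arrays scaled to a common median (-1.09, adjusted p = 0.0534). With the high poly-A arrays alone 5 of the 7 were called, Col11a1 and Col9a1 being lost (adjusted p = 0.214 and 0.107).

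Cartilage matrix genes had a median difference of -2.36, and 23 of 25 fell. Matn3 and Matn1 encode matrilins, which link cartilage fibrils to proteoglycans. Matn3 had 8.01, 8.56 and 8.68 in Thy+ cells, against 12.29, 12.39 and 12.37 in Thy- cells (-3.93 ± 0.23, adjusted p = 1.14e-08). Matn1 had 7.60, 8.39 and 8.24 in Thy+ cells, against 11.31, 11.66 and 11.65 in Thy- cells (-3.46 ± 0.34, adjusted p = 3.37e-06). Epyc, the leucine-rich proteoglycan epiphycan of growth cartilage, had 7.17, 7.33 and 7.16 in Thy+ cells, against 11.48, 10.87 and 10.75 in Thy- cells (-3.81 ± 0.26, adjusted p = 1.03e-07). In all of these the groups lay at least 2.9 units apart. Frzb, a secreted Wnt antagonist of cartilage, fell by 3.39 on the log2 scale (adjusted p = 4.08e-06). S100b, a calcium-binding protein of chondrocytes and glia, differed by -3.07 ± 0.39 (adjusted p = 4.48e-05), and Mia, a secreted cartilage protein, by -2.90 ± 0.34 (adjusted p = 2.02e-05). Cytl1, a cytokine-like protein of cartilage, had a difference of -2.88 ± 0.21 (adjusted p = 1.15e-07). Acan, aggrecan, was among the smallest falls of the list, at -0.92 ± 0.23 (adjusted p = 0.0183); leaving out replicate 2 or 3 of either population ended this call, with adjusted p up to 0.0966. The member that rose was Matn2, a matrilin found widely outside cartilage, with 10.76, 11.73 and 11.63 in Thy+ cells and 10.69, 10.35 and 9.81 in Thy- cells (1.09 ± 0.29, adjusted p = 0.0249), a call also lost without replicate 2 or 3 of either population. Its values without them were 0.85 to 1.13, and it was not called with a common median or averaged over its probe sets (1.19, adjusted p = 0.0678; 0.89, adjusted p = 0.357). Acan and Matn2 were chosen after their values were seen. Cilp2 was the single member not called.

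Of 16 chondrocyte transcription factors, 8 fell and none rose. The Sox trio fell together. Sox9 had 7.27, 8.32 and 8.02 in Thy+ cells, against 11.12, 10.13 and 10.61 in Thy- cells (-2.75 ± 0.44, adjusted p = 0.000469). For its partner Sox6 the levels were 7.60, 8.64 and 8.51 in Thy+ cells and 10.83, 10.40 and 10.86 in Thy- cells (-2.44 ± 0.44, adjusted p = 0.00151). Sox5 differed by -2.35 ± 0.31 (adjusted p = 6.25e-05). Replicate 1 was the lowest Thy+ array for each Sox gene of the trio. By the mean over probe sets Sox9 was at -1.65 and Sox5 at -1.43. Foxa3, a forkhead factor that with Foxa2 acts in hypertrophic chondrocytes, had 4.47, 4.56 and 4.80 in Thy+ cells, against 8.37, 8.86 and 9.27 in Thy- cells (-4.23 ± 0.39, adjusted p = 1.96e-06). Foxa2 itself differed by -2.44 ± 0.27 (adjusted p = 9.13e-06). Wwp2, a ubiquitin ligase whose gene houses the cartilage microRNA miR-140, fell by 2.06 on the log2 scale (adjusted p = 3.49e-07). Among other forkhead genes, Foxc1, needed for endochondral bone, also fell (-1.78 ± 0.27, adjusted p = 0.000324), while 16 of 18 measured were not called; the other fall of that list was lost without Thy- replicate 1, 2 or 3 or Thy+ replicate 2 or 3.

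Of 16 genes of hypertrophy and mineralization, 5 fell and 11 were not called; 8 of the 16 had means under the median gene in both groups. Col10a1, the collagen of hypertrophic cartilage, had levels of 5.31, 5.30 and 5.24 in Thy+ cells, against 8.29, 8.06 and 7.40 in Thy- cells (-2.63 ± 0.27, adjusted p = 6.06e-06). Smpd3, a sphingomyelinase needed for mineralization, had 5.51, 6.26 and 5.76 in Thy+ cells and 9.04, 9.01 and 9.31 in Thy- cells (-3.28 ± 0.26, adjusted p = 3.49e-07). The osteoblast factor Sp7 differed by -1.40 ± 0.24 (adjusted p = 0.000885). In each case the groups were apart, with the Thy+ arrays below, as for 11.8% of all genes. In the hedgehog and parathyroid hormone-related protein list, 3 of 12 fell and none rose. Ihh, the ligand, had 5.09, 4.90 and 4.83 in Thy+ cells, against 7.32, 7.20 and 6.68 in Thy- cells (-2.13 ± 0.23, adjusted p = 8.16e-06). Its receptor Ptch1, which is also a target of the pathway, had 11, 9.81 and 10.03 in Thy+ cells and 11.70, 11.92 and 11.68 in Thy- cells (-1.49 ± 0.28, adjusted p = 0.00193). The call of Ptch1 did not pass when its probe sets were averaged (-0.50, adjusted p = 0.0875). Hhip, a membrane protein that binds and holds the ligand, differed by -1.41 ± 0.27 (adjusted p = 0.00259), a call lost with the high poly-A arrays alone (adjusted p = 0.096). Ligand, receptor and decoy thus stood lower on every Thy+ array.

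FGF genes moved both ways: of 22, 4 fell and 3 rose. Fgfr3, the receptor that restrains growth cartilage, had 7.78, 7.88 and 7.74 in Thy+ cells, against 11.11, 11.25 and 11.11 in Thy- cells (-3.36 ± 0.38, adjusted p = 1.5e-05). The Ets factor Etv5, a target of the pathway, differed by -1.65 ± 0.33 (adjusted p = 0.00385). The receptor-like Fgfrl1 differed by -1.56 ± 0.33 (adjusted p = 0.00631). In the opposite direction, Il17rd, a membrane inhibitor of FGF signalling, had 8.42, 8.54 and 8.95 in Thy+ cells, against 6.89, 6.55 and 6.09 in Thy- cells (2.12 ± 0.34, adjusted p = 0.000449). Spry1, an intracellular feedback inhibitor, rose by 1.69 ± 0.33 (adjusted p = 0.0032). Fgf9, a ligand, rose by 1.71 ± 0.38 (adjusted p = 0.00823), a call lost without replicate 1 of either population (adjusted p = 0.0516 without the Thy+ array and 0.0515 without the Thy- array). The number of falls on the list dropped to 1 when the comparison kept only the arrays with high poly-A controls, where Etv5, Fgfrl1 and Fgf9 were not called (adjusted p = 0.154, 0.0811 and 0.158). Averaged over probe sets Etv5 was at -1.07 and Il17rd at 1.39.

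Enzymes of glycosaminoglycans moved both ways, 3 of 24 in each direction, with 6 falls in the fit of the 6 arrays alone. Chst5, a sulfotransferase, had 9.76, 10.18 and 10.26 in Thy+ cells, against 7.88, 7.996 and 7.62 in Thy- cells (2.23 ± 0.23, adjusted p = 5.88e-06). Sulf1, which removes sulfate from heparan sulfate at the cell surface, rose by 1.21 ± 0.15 (adjusted p = 4.57e-05; 0.72 averaged over its probe sets). Extl1, a glycosyltransferase of the exostosin family, had 6.18, 6.13 and 6.20 in Thy+ cells and 8.32, 8.75 and 8.18 in Thy- cells (-2.25 ± 0.26, adjusted p = 2.01e-05). Csgalnact1, which starts chondroitin chains, differed by -1.65 ± 0.23 (adjusted p = 0.000125). The genes of collagen folding and secretion had 3 that rose and 6 that fell of 25. Colgalt2, a collagen galactosyltransferase, had 6.12, 6.58 and 6.55 in Thy+ cells, against 9.09, 9.14 and 9.02 in Thy- cells (-2.67 ± 0.20, adjusted p = 1.35e-07). The prolyl hydroxylase subunit P4ha2 fell by 0.998 while another subunit, P4ha3, rose by 1.65 ± 0.31 (adjusted p = 0.000257 and 0.00218). A pair of related transcription factors of secretory cells also went opposite ways, with Creb3l2 at -1.04 ± 0.18 and Creb3l1 at 0.87 ± 0.17 (adjusted p = 0.00106 and 0.00273).

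Of 35 mural genes 24 rose and 1 fell, with a median difference of 1.59; over all genes 4.03% rose. Their average level was 8.44 to 8.50 on Thy+ arrays and 6.88 to 7.05 on Thy- arrays. Rgs5, a regulator of G protein signalling used as a pericyte marker, had levels of 12.06, 12.40 and 12.21 in Thy+ cells, against 9.17, 8.61 and 8.81 in Thy- cells (3.36 ± 0.27, adjusted p = 3.44e-07). Notch3, the receptor that arterial smooth muscle needs to mature, had 10.30, 9.80 and 9.50 in Thy+ cells, against 6.35, 6.96 and 5.49 in Thy- cells (3.60 ± 0.42, adjusted p = 2.03e-05). Gucy1a1, a subunit of the nitric oxide receptor, had 7.91, 8.29 and 7.94 in Thy+ cells, against 4.83, 4.62 and 4.71 in Thy- cells (3.33 ± 0.24, adjusted p = 1.15e-07). The Thy+ arrays lay at least 2.5 units above the Thy- arrays for each of them on these probe sets. That of Notch3 is named as shared, and without such probe sets Notch3 was at 1.57 (adjusted p = 0.00176). Averaged over its probe sets Gucy1a1 was at 1.99, the others giving 1.13 ± 0.20 and 1.53 ± 0.23. Kcnj8, the potassium channel of pericytes, had 9.54, 9.82 and 10.01 in Thy+ cells and 6.69, 6.76 and 6.74 in Thy- cells (3.06 ± 0.22, adjusted p = 1.15e-07). Ednrb, an endothelin receptor, had 8.33, 7.97 and 7.72 in Thy+ cells and 4.33, 4.81 and 5.25 in Thy- cells (3.21 ± 0.26, adjusted p = 3.49e-07; 1.25 averaged over its probe sets).

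Genes of contraction were part of this rise. Myh11, the myosin heavy chain that marks smooth muscle, had 7.19, 7.45 and 6.86 in Thy+ cells, against 5.49, 5.56 and 5.06 in Thy- cells (1.80 ± 0.28, adjusted p = 0.000434). Mylk, the kinase of the myosin light chain, had 11.89, 11.62 and 11.55 in Thy+ cells, against 8.83, 9.73 and 8.80 in Thy- cells (2.57 ± 0.25, adjusted p = 3.7e-06). Acta2, smooth muscle actin, had 12.56, 12.85 and 12.85 in Thy+ cells and 10.22, 10.48 and 10.30 in Thy- cells (2.43 ± 0.24, adjusted p = 3.72e-06). The last value comes from a probe set named as shared; without such probe sets a dim one stood for the gene and gave -0.16 (adjusted p = 0.796). By the mean over probe sets Acta2 was at 0.90, Myh11 at 1.06 and Mylk at 1.70. Actg2, the gamma actin of visceral smooth muscle, differed by 2.31 ± 0.24 (adjusted p = 6.04e-06). Vtn, vitronectin, which pericytes make, differed by 2.09 ± 0.34 (adjusted p = 0.000505). The single member that fell was Cspg4, the proteoglycan NG2, which chondrocytes carry as well as pericytes; it had 11, 10.57 and 10.47 in Thy+ cells and 12.11, 12.57 and 11.98 in Thy- cells (-1.54 ± 0.30, adjusted p = 0.00259) and was chosen after its value was seen. On the whole list 10 members were not called and 7 lay under the median gene in both groups. A test kept to genes above the median mean called 14 of 18 mural genes higher.

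Matrix genes of fibrous tissue and of basement membranes rose in part. Of 32 fibrous collagen and elastic fibre genes, 14 rose, none fell and the median difference was 0.67. Dpt, dermatopontin, a collagen-binding protein, had 12.35, 12.53 and 12.43 in Thy+ cells, against 10.09, 10.29 and 9.69 in Thy- cells (2.41 ± 0.32, adjusted p = 7.67e-05). Among microfibril proteins, Mfap5 had 9.99, 9.75 and 10.14 in Thy+ cells, against 7.58, 8.36 and 6.98 in Thy- cells (2.32 ± 0.29, adjusted p = 3.77e-05). Mfap4 differed by 2.24 ± 0.24 (adjusted p = 9.04e-06). Fbln5, needed to assemble elastic fibres, differed by 1.99 ± 0.19 (adjusted p = 2.64e-06; 1.27 averaged over its probe sets), and Tnxb, tenascin X, by 1.90 ± 0.35 (adjusted p = 0.0018). The 18 members not called had differences from -0.96 to 0.83. In the basement membrane list 7 of 19 rose and 1 fell. Both chains of its main collagen rose, Col4a1 with 12.64, 12.46 and 12.32 in Thy+ cells, against 10.11, 11.06 and 10.25 in Thy- cells (2.00 ± 0.27, adjusted p = 8.41e-05), and Col4a2 by 1.69 ± 0.27 (adjusted p = 0.00046). Col18a1, the source of endostatin, had 11.07, 10.28 and 10.31 in Thy+ cells, against 7.98, 8.93 and 7.82 in Thy- cells (2.31 ± 0.38, adjusted p = 0.000611). Replicate 2 was the highest Thy- array for Col18a1, Col4a1 and Col4a2. The laminin chains Lama2 and Lamb1 differed by 1.98 ± 0.22 and 1.73 ± 0.34 (adjusted p = 1.14e-05 and 0.00323). Nid2, a nidogen, fell (-1.73 ± 0.39, adjusted p = 0.00934). Its call was lost without Thy+ replicate 1 (-1.37, adjusted p = 0.0635). With the high poly-A arrays alone Nid2 and Lamb1 were not called (adjusted p = 0.0873 and 0.0575).

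Tendon and other fibroblast genes rose in 7 of 11 cases, with 1 fall; without replicate 3 of either population, with a common median or with the high poly-A arrays alone 4 rose. Thbs4, a thrombospondin of tendon, had 12.72, 13.40 and 13.37 in Thy+ cells, against 11.30, 11.55 and 11.02 in Thy- cells (1.87 ± 0.26, adjusted p = 0.000112). Dpp4, a surface peptidase of fibroblast progenitors, had 6.58, 6.66 and 6.64 in Thy+ cells and 4.86, 4.61 and 4.35 in Thy- cells (2.02 ± 0.25, adjusted p = 3.1e-05). Cd34, a sialomucin of fibroblasts and endothelium, differed by 1.37 ± 0.22 (adjusted p = 0.000563). Averaged over probe sets Dpp4 was at 1.18. The other rises were those of Pdgfra, Pi16, Thbs2 and Tnmd, of which the tendon membrane protein Tnmd lost its call without any 1 of the 6 arrays. Without shared probe sets Pi16 went from 1.74 to 0.32 (adjusted p = 0.457). Thbs2 lost its call without Thy- replicate 1 or 3, without Thy+ replicate 2 or 3, as deposited and with a common median. Pdgfra did without replicate 3 of either population, with a common median and averaged over probe sets. With the high poly-A arrays alone Pi16 and Pdgfra were not called. Of the transcription factors on the list, Scx, which directs tendon formation, was not called, at 0.11 ± 0.28 (adjusted p = 0.925), and Egr1, an immediate early gene that also acts in tendon, was the member that fell (-1.07 ± 0.18, adjusted p = 0.000666). Of 13 small leucine-rich proteoglycans 2 rose and 2 fell, with 1 fall without replicate 1 or 3 of either population. Kera, keratocan, had 12.12, 12.68 and 12.59 in Thy+ cells, against 9.60, 9.29 and 9.44 in Thy- cells (3.02 ± 0.26, adjusted p = 7.58e-07). Chadl, a chondroadherin-like protein of cartilage, moved by about as much the other way, with 7.67, 7.56 and 7.31 in Thy+ cells and 10.58, 10.73 and 10.57 in Thy- cells (-3.11 ± 0.35, adjusted p = 1.43e-05).

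Of 42 limb mesenchyme transcription factors, 12 rose and 2 fell. No fall was called on the list without Thy- replicate 1 or 3 or Thy+ replicate 2 or 3, and that of the nuclear receptor Nr4a1 (-2.48 ± 0.70) was lost without Thy+ replicate 1 too. Besides Vgll3 and Twist2, Zeb2, a repressor of epithelial genes, had 10.12, 9.71 and 9.17 in Thy+ cells, against 6.72, 6.31 and 5.95 in Thy- cells (3.34 ± 0.42, adjusted p = 4.46e-05). The paired homeobox genes Prrx2 and Prrx1, which mark limb mesenchyme, both rose. Prrx2 had 10.50, 10.52 and 10.57 in Thy+ cells, against 8.37, 8.94 and 8.18 in Thy- cells (2.03 ± 0.32, adjusted p = 0.000375). Prrx1 differed by 1.504 ± 0.24 (adjusted p = 0.000436). The orphan nuclear receptor Nr2f2, known from veins and mesenchyme, had 9.06, 8.66 and 8.95 in Thy+ cells, against 6.92, 7.25 and 6.42 in Thy- cells (2.03 ± 0.36, adjusted p = 0.0014), and its relative Nr2f1 differed by 1.69 ± 0.25 (adjusted p = 0.000218). By the mean over probe sets Zeb2 was at 2.17 and Nr2f2 at 1.33. Hox genes, which carry position along the limb and body, had 26 of 28 members that were not called. Hoxc8 fell by 1.38 on the log2 scale (adjusted p = 0.00696), a call lost with the high poly-A arrays alone (adjusted p = 0.0631). Hoxb5 rose by 0.60 ± 0.17 (adjusted p = 0.0344), a call lost without any 1 of the Thy- arrays or Thy+ replicate 2 or 3 (0.47 to 0.66, adjusted p from 0.0529 to 0.198). Of the 28 Hox genes 18 lay under the median gene in both groups. The share of each list called in either direction is drawn in the plot of lists.

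**Figure D3:**
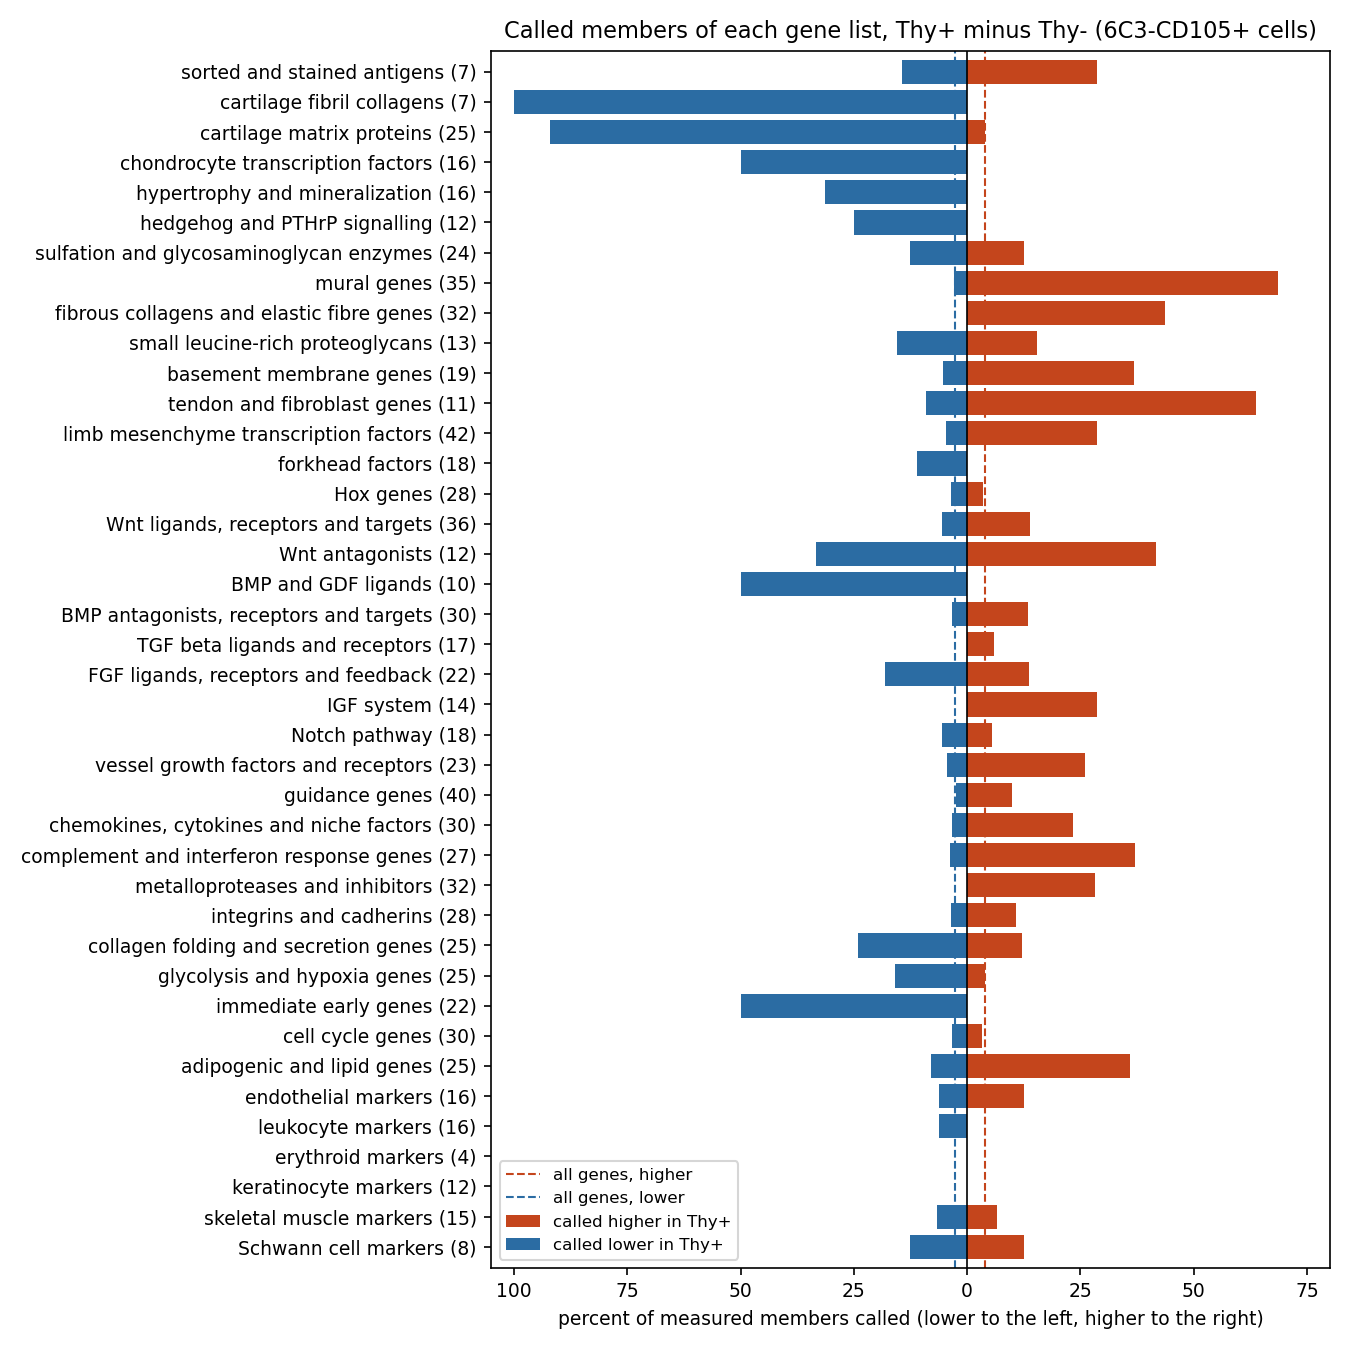
Percent of measured members called higher (right) or lower (left) in Thy+ cells for 40 lists, with the number measured in brackets; dashed lines give the shares over all genes, 4.03% higher and 2.63% lower. Cartilage lists reach farthest to the left and mural genes and the list of tendon and fibroblast genes farthest to the right.

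In the Wnt pathway, which controls limb growth and bone formation, 5 of 36 ligand, receptor and target genes rose and 2 fell. Rspo2, an R-spondin that amplifies Wnt signals through Lgr receptors, had 8.44, 9.76 and 9.51 in Thy+ cells, against 6.94, 6.95 and 6.55 in Thy- cells (2.42 ± 0.37, adjusted p = 0.000273). Rspo1 differed by 1.89 ± 0.21 (adjusted p = 1.4e-05). The ligand Wnt2 had 7.07, 6.71 and 7.10 in Thy+ cells, against 4.66, 5.36 and 4.88 in Thy- cells (1.99 ± 0.27, adjusted p = 8.44e-05). Nkd2, an inducible inhibitor inside the cell, differed by 2.65 ± 0.45 (adjusted p = 0.00077). Averaged over probe sets Rspo2 was at 1.17 and Nkd2 at 1.43. On the side of receptors, Lgr6 fell, with 6.74, 7.30 and 6.68 in Thy+ cells and 9.22, 9.19 and 9.80 in Thy- cells (-2.50 ± 0.40, adjusted p = 0.000508), and so did Fzd9 (-1.85 ± 0.32, adjusted p = 0.000858). Antagonists divided, with 5 of 12 up and 4 down. Dkk2 had 9.002, 8.92 and 9.005 in Thy+ cells, against 6.57, 7.38 and 5.77 in Thy- cells (2.40 ± 0.44, adjusted p = 0.00157), while Notum, which removes the lipid of Wnt proteins, had 5.27, 5.16 and 5.52 in Thy+ cells and 7.68, 8.16 and 7.95 in Thy- cells (-2.61 ± 0.25, adjusted p = 3.37e-06). Sfrp5, a secreted decoy, differed by -2.48 ± 0.32 (adjusted p = 5.23e-05) and its relative Sfrp1 by -1.26 ± 0.22 (adjusted p = 0.000964). By the mean over probe sets Sfrp5 was at -1.57. Without replicate 3 of either population 3 of the antagonists rose, and with the high poly-A arrays alone 2 fell, Sfrp1 not being called (adjusted p = 0.0537).

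Of 10 BMP and GDF ligands, 5 fell and none rose, though the number of falls was 2 or 3 when replicate 1 of either population or Thy- replicate 2 or 3 was left out. The one called under every alternative was Gdf10, with 10.18, 9.91 and 9.90 in Thy+ cells, against 11.74, 11.95 and 11.85 in Thy- cells (-1.85 ± 0.15, adjusted p = 3.22e-07). Gdf5, a ligand of joints, differed by -1.28 ± 0.26 (adjusted p = 0.00397), a call lost with the high poly-A arrays alone (adjusted p = 0.111), where 2 of the ligands fell. Acvrl1, a type I receptor of the family that pairs with CD105 in endothelium, had 7.41, 7.23 and 7.81 in Thy+ cells, against 6.32, 6.52 and 5.80 in Thy- cells (1.27 ± 0.23, adjusted p = 0.0015; 0.74 without shared probe sets). Among 30 antagonists, receptors and targets 4 rose and 1 fell, and without replicate 3 of either population 2 rose. Of 17 TGF beta ligands and receptors 1 was called, the latent binding protein Ltbp4 (1.23 ± 0.27, adjusted p = 0.0084), against 4 in the fit of the 6 arrays alone. That call was lost without Thy- replicate 3 (1.03, adjusted p = 0.0641). In the IGF system 4 of 14 rose, and 2 did when Thy- replicate 1 or 2 or Thy+ replicate 2 or 3 was left out. Igf1, the growth factor, had 12.50, 12.65 and 12.66 in Thy+ cells, against 10.91, 11.35 and 10.96 in Thy- cells (1.53 ± 0.26, adjusted p = 0.000847). The binding protein Igfbp2 had 11.10, 10.42 and 10.47 in Thy+ cells, against 7.50, 9.09 and 7.62 in Thy- cells (2.59 ± 0.44, adjusted p = 0.000756), with Thy- replicate 2 above the other arrays of its group.

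Of the 18 measured genes of the Notch pathway list, which does not hold Notch3, 1 rose and 1 fell. Hey2, a target of the pathway in vessel walls, had 5.28, 6.28 and 5.66 in Thy+ cells, against 3.78, 3.76 and 3.85 in Thy- cells (1.94 ± 0.18, adjusted p = 2.42e-06), all below the median gene. The fall was that of Dlk1, a noncanonical ligand of early cartilage and fat precursors (-1.59 ± 0.21, adjusted p = 6.35e-05); without shared probe sets it stood at -0.18 (adjusted p = 0.906) and averaged over its probe sets at -0.89, adjusted p = 0.0568. Of 23 vessel growth factors and receptors, 6 rose and 1 fell. Vegfc, the lymphatic growth factor, had 10.02, 10.19 and 10.27 in Thy+ cells, against 8.84, 9.01 and 8.30 in Thy- cells (1.44 ± 0.30, adjusted p = 0.00444). Angptl4, a secreted regulator of lipase and vessels, differed by 1.45 ± 0.26 (adjusted p = 0.00112; 0.93 averaged over its probe sets and 0.41 without shared ones). Thbs1, a thrombospondin that checks vessel growth, had 6.44, 7.24 and 8.10 in Thy+ cells and 10.07, 10.04 and 10.37 in Thy- cells (-2.90 ± 0.44, adjusted p = 0.000267). With the high poly-A arrays alone 2 of the list rose. Among 40 guidance genes 4 rose and 1 fell, with 10 rises in the fit of the 6 arrays alone, the fall being lost without replicate 2 of either population or Thy+ replicate 3. The repellent Slit2 had 9.02, 8.80 and 8.70 in Thy+ cells, against 6.51, 7.06 and 5.92 in Thy- cells (2.34 ± 0.37, adjusted p = 0.000446; 1.14 averaged over its probe sets).

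Genes by which stroma signals to blood and immune cells rose in part. Of 30 chemokine, cytokine and niche genes, 7 rose and 1 fell. With the high poly-A arrays alone 4 rose and 4 fell, with a median difference of -0.03, against 0.09 with all arrays. Without Thy- replicate 3 the number that rose was 4, and the fall was lost without any 1 of the 6 arrays other than Thy- replicate 2. Cxcl12, the chemokine that holds blood stem cells in the marrow, had 10.92, 10.89 and 11.11 in Thy+ cells, against 8.95, 8.50 and 8.31 in Thy- cells (2.39 ± 0.27, adjusted p = 1.43e-05). Its groups were more than 1.9 units apart on this probe set. The other 2 probe sets gave 0.39 ± 0.18 and -0.17 ± 0.23, and the mean of all was 0.87 (adjusted p = 0.000935). Kitl, stem cell factor, had 9.58, 9.13 and 9.13 in Thy+ cells, against 7.02, 7.57 and 4.93 in Thy- cells (2.77 ± 0.64, adjusted p = 0.0105). Thy- replicate 3 was far below the others, and without it the difference was 1.99, adjusted p = 0.0764. Lepr, the leptin receptor, a marker of marrow stroma in adult mice, had 8.13, 8.13 and 9.08 in Thy+ cells, against 5.63, 5.68 and 4.41 in Thy- cells (3.21 ± 0.78, adjusted p = 0.0154). Here Thy+ replicate 3 was the highest and Thy- replicate 3 the lowest array, and the call was lost without either (2.89, adjusted p = 0.0841 without the Thy+ array; 2.79, adjusted p = 0.0936 without the Thy- array). Averaged over probe sets Kitl was at 0.98 and Lepr at 1.63, and neither was called with the high poly-A arrays alone (adjusted p = 0.0558 and 0.123). Il33, an alarmin stored in the nucleus, had 9.04, 9.88 and 9.998 in Thy+ cells, against 6.88, 5.998 and 5.36 in Thy- cells (3.56 ± 0.44, adjusted p = 3.35e-05). Vcam1, an adhesion molecule for leukocytes, differed by 1.93 ± 0.19 (adjusted p = 4.35e-06).

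Complement and interferon response genes rose in 10 of 27 cases and fell in 1, with a median difference of 0.64; the fall was lost without replicate 1 of either population, Thy- replicate 3 or Thy+ replicate 2. Serping1, the inhibitor of the first complement component, had 10.64, 10.55 and 10.94 in Thy+ cells, against 7.92, 8.74 and 7.87 in Thy- cells (2.53 ± 0.27, adjusted p = 8.08e-06). C2, a complement protease, differed by 1.90 ± 0.26 (adjusted p = 0.000106). Gbp2, an interferon-induced GTPase, had 6.40, 6.68 and 6.75 in Thy+ cells and 4.65, 4.18 and 3.54 in Thy- cells (2.49 ± 0.31, adjusted p = 4.04e-05; 1.63 without shared probe sets), with all Thy- arrays under 5. Ifitm3, a relative of Ifitm1, differed by 1.503 ± 0.18 (adjusted p = 2.56e-05).

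Metalloproteases and their inhibitors had 9 rises and no fall among 32. That count was 3 without Thy- replicate 3 and 5 without Thy+ replicate 2 or 3. Mmp23 had 10.67, 10.87 and 10.92 in Thy+ cells, against 9.22, 8.75 and 8.88 in Thy- cells (1.87 ± 0.18, adjusted p = 3.37e-06), and Mmp11, a stromal protease, differed by 2.03 ± 0.30 (adjusted p = 0.000199). Of 28 integrins and cadherins 3 rose (6 in the fit of the 6 arrays alone) and 1 fell, the fall being lost without any 1 of the 6 arrays other than Thy+ replicate 1. Cdh13, a cadherin without a cytoplasmic tail, had 9.14, 10.04 and 10.08 in Thy+ cells, against 8.45, 8.18 and 8.39 in Thy- cells (1.41 ± 0.28, adjusted p = 0.00349; 0.88 averaged over its probe sets). Itgb3, which pairs with the integrin alpha V used in the gate, differed by 1.17 ± 0.23 (adjusted p = 0.00323; 0.66 averaged over its probe sets), a call lost with the high poly-A arrays alone (adjusted p = 0.0656). Of 25 adipogenic and lipid genes 9 rose and 2 fell, with 1 fall without replicate 3 of either population or Thy+ replicate 2. Lpl, lipoprotein lipase, had 11.51, 11.41 and 11.36 in Thy+ cells, against 9.60, 9.48 and 8.67 in Thy- cells (2.17 ± 0.26, adjusted p = 2.22e-05). The lipid droplet protein Plin2 differed by 1.20 ± 0.15 (adjusted p = 2.82e-05). Of 25 glycolysis and hypoxia genes 1 rose and 4 fell. Among the falls, the membrane carbonic anhydrase Car12 had 6.19, 6.51 and 6.20 in Thy+ cells, against 8.68, 8.16 and 8.44 in Thy- cells (-2.12 ± 0.31, adjusted p = 0.000223; -0.86 averaged over its probe sets). Hexokinase 2, Hk2, differed by -1.32 ± 0.23 (adjusted p = 0.000917).

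Immediate early genes, which cells switch on quickly after a stimulus, fell in 11 of 22 cases, with a median difference of -1.34 and no rise. Fosb had 7.84, 8.87 and 9.25 in Thy+ cells, against 11.29, 11.69 and 11.70 in Thy- cells (-2.91 ± 0.48, adjusted p = 0.00067). Atf3, a stress-induced factor, had 8.39, 9.80 and 9.82 in Thy+ cells, against 12.30, 11.64 and 12.41 in Thy- cells (-2.78 ± 0.61, adjusted p = 0.00812). Junb had 9.32, 9.70 and 9.28 in Thy+ cells, against 11.94, 11.12 and 11.75 in Thy- cells (-2.17 ± 0.33, adjusted p = 0.000267). The groups did not overlap for any of these genes, with the Thy+ arrays below, as for 11.8% of all genes. Atf3 was not called without Thy+ replicate 1 (-2.30, adjusted p = 0.0535). Averaged over the list, Thy+ arrays had 9.55, 9.93 and 9.88 and Thy- arrays 11.43, 10.65 and 11.49. The lowest array of each group, Thy+ replicate 1 and Thy- replicate 2, was also the one with low signal on the 24 poly-A control probe sets (4.65 and 5.03, against 7.21 to 8.66 on the other 4 arrays). With the arrays of high control signal alone 15 immediate early genes fell. The number of immediate early genes that fell was 7 without Thy- replicate 3 and 6 without Thy+ replicate 1. Cell cycle genes gave 1 rise and 1 fall in 30, with a median difference of 0.43. Their average level was 9.05 to 9.16 on Thy+ arrays and 8.70 to 8.81 on Thy- arrays. A fit of the 6 arrays alone called 10 of them higher, beside 1068 of all 18193 genes. One with array weights called 8 of them higher, beside 1640 of all genes. The rise in the main fit was lost without any 1 of the 6 arrays other than Thy- replicate 3. The fall was that of the cell cycle inhibitor Cdkn1a (-1.13 ± 0.22, adjusted p = 0.00266).

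A second Thy step in the series, between Thy+6C3-CD105- and Thy-6C3-CD105- cells (3 arrays each, same age, limbs and gate), shares no array with the first, so the difference between the steps could be tested. That step had 3271 called genes (18%). The difference of the steps, CD105+ minus CD105-, was called for 49 genes (0.269%), 44 of them above 0 (0.242%) and 5 below (0.0275%). Leaving out 1 array gave 25 (without Thy-6C3-CD105+ replicate 3) to 104 genes (without Thy+6C3-CD105- replicate 1). Of Thy-6C3-CD105- cells only replicate 1 had high poly-A control signal, so the arrays with high signal alone could not decide this difference. Of Thy+6C3-CD105- cells replicates 2 and 3 had high signal. The step among CD105- cells was thus unbalanced in control signal, while that among CD105+ cells had 2 high arrays in each population. With the poly-A control set as a block in the fit, 53 genes were called in the difference of the steps. Mural genes gave 8 of the 44, and 37 of the 49 were also called in the step among CD105+ cells. Of these 37, 30 rose there and were not called among CD105- cells. Vgll3 had the largest difference, at 3.60 ± 0.52 (adjusted p = 0.00343): its Thy step was 4.36 ± 0.36 in CD105+ and 0.77 ± 0.36 in CD105- cells. For Notch3 the steps were 3.60 ± 0.42 in CD105+ and 0.22 ± 0.42 in CD105- cells (adjusted p of the difference = 0.0155). Without shared probe sets the difference of the steps of Notch3 was 1.23 (adjusted p = 0.229), and its call was also lost without Thy-6C3-CD105+ replicate 3 or Thy-6C3-CD105- replicate 1. Rgs5 had 3.36 ± 0.27 in CD105+ and 0.17 ± 0.27 in CD105- cells (adjusted p = 0.000726). All of these genes had steps under 1 among CD105- cells.

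Levels over the 6 neonatal populations set these genes in the whole series. Rgs5 averaged 12.22 ± 0.17 in Thy+6C3-CD105+ cells, against 8.86 ± 0.29 in Thy-6C3-CD105+ cells (SD, n = 3 here and below). The other means of Rgs5 were 8.59 ± 0.32 in Thy+6C3-CD105-, 8.42 ± 0.54 in Thy-6C3-CD105-, 9.72 ± 0.36 in Thy-6C3+CD105+ and lastly 9.33 ± 0.29 in Thy-6C3+CD105- cells. All 3 Thy+6C3-CD105+ arrays lay above all other neonatal arrays for Rgs5, which was picked for its called difference of the steps. The share of all genes for which they did so was not counted. Gucy1a1 averaged 8.05 ± 0.21 in Thy+6C3-CD105+ cells and between 4.72 and 5.53 in the other populations. Actg2 averaged 7.45 ± 0.08 there and between 4.75 and 5.49 elsewhere. Hey2 averaged 5.74 ± 0.51 there and between 3.76 and 3.91 elsewhere. Twist2 kept a smaller step among CD105- cells, where its mean was 8.79 ± 0.33 if Thy+ and 7.30 ± 0.24 if Thy- (1.49 ± 0.30, adjusted p = 0.00304). Among CD105+ cells its mean was 10.86 ± 0.51 if Thy+ and 7.17 ± 0.45 if Thy-. Beside these genes, Esam of the endothelial list averaged 8.31 ± 0.04 in Thy+6C3-CD105+ cells and between 5.99 and 6.27 in the others.

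**Figure D4:**
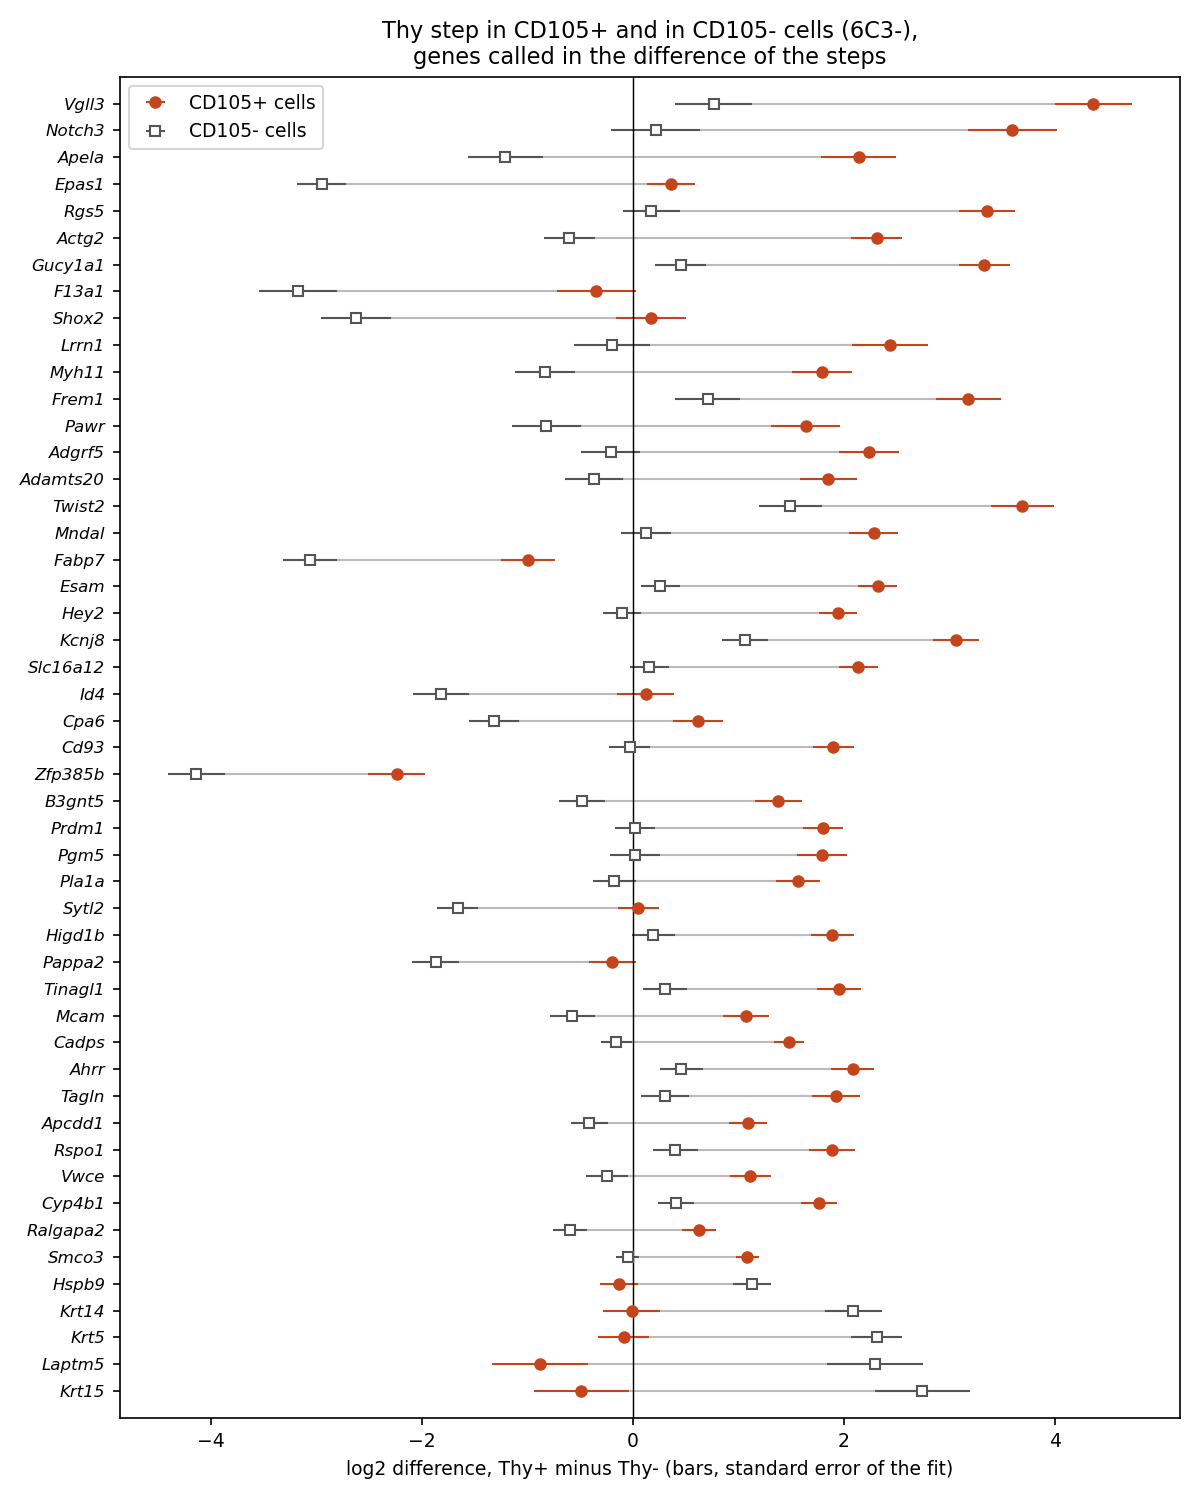
Thy step (log2 difference, x axis, with the standard error of the fit) in CD105+ cells (filled circles) and CD105- cells (open squares) for the 49 genes called in the difference of the steps, ordered by that difference. Vgll3, Notch3, Rgs5 and Gucy1a1 have steps above 3 in CD105+ cells and under 1 in CD105- cells, while Epas1, Shox2 and the keratins have steps near 0 in CD105+ cells and of over 2 units in CD105- cells.

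A further 12 of the 49 genes were not called in the step among CD105+ cells, and all of these 12 were called among CD105- cells. Epas1, the hypoxia-inducible factor 2 alpha, averaged 9.79 ± 0.12 in Thy+ and 9.43 ± 0.01 in Thy- cells that were CD105+. Among CD105- cells it averaged 6.01 ± 0.50 in Thy+ and 8.96 ± 0.24 in Thy- cells (difference of the steps 3.31 ± 0.33, adjusted p = 0.000185). Shox2, a limb homeobox gene, had steps of 0.18 ± 0.33 in CD105+ and -2.62 ± 0.33 in CD105- cells (adjusted p = 0.0113). Krt5, a keratin of basal epidermis, had steps of -0.09 ± 0.25 in CD105+ and 2.31 ± 0.25 in CD105- cells (adjusted p = 0.00343). The keratinocyte markers Krt14 and Krt15 and the leukocyte gene Laptm5 were also among the 5 genes with a difference below 0, and all of these had a called rise in Thy+ cells among CD105- cells. Epas1, Shox2, Laptm5 and the keratins were chosen after their values were seen.

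**Figure D5:**
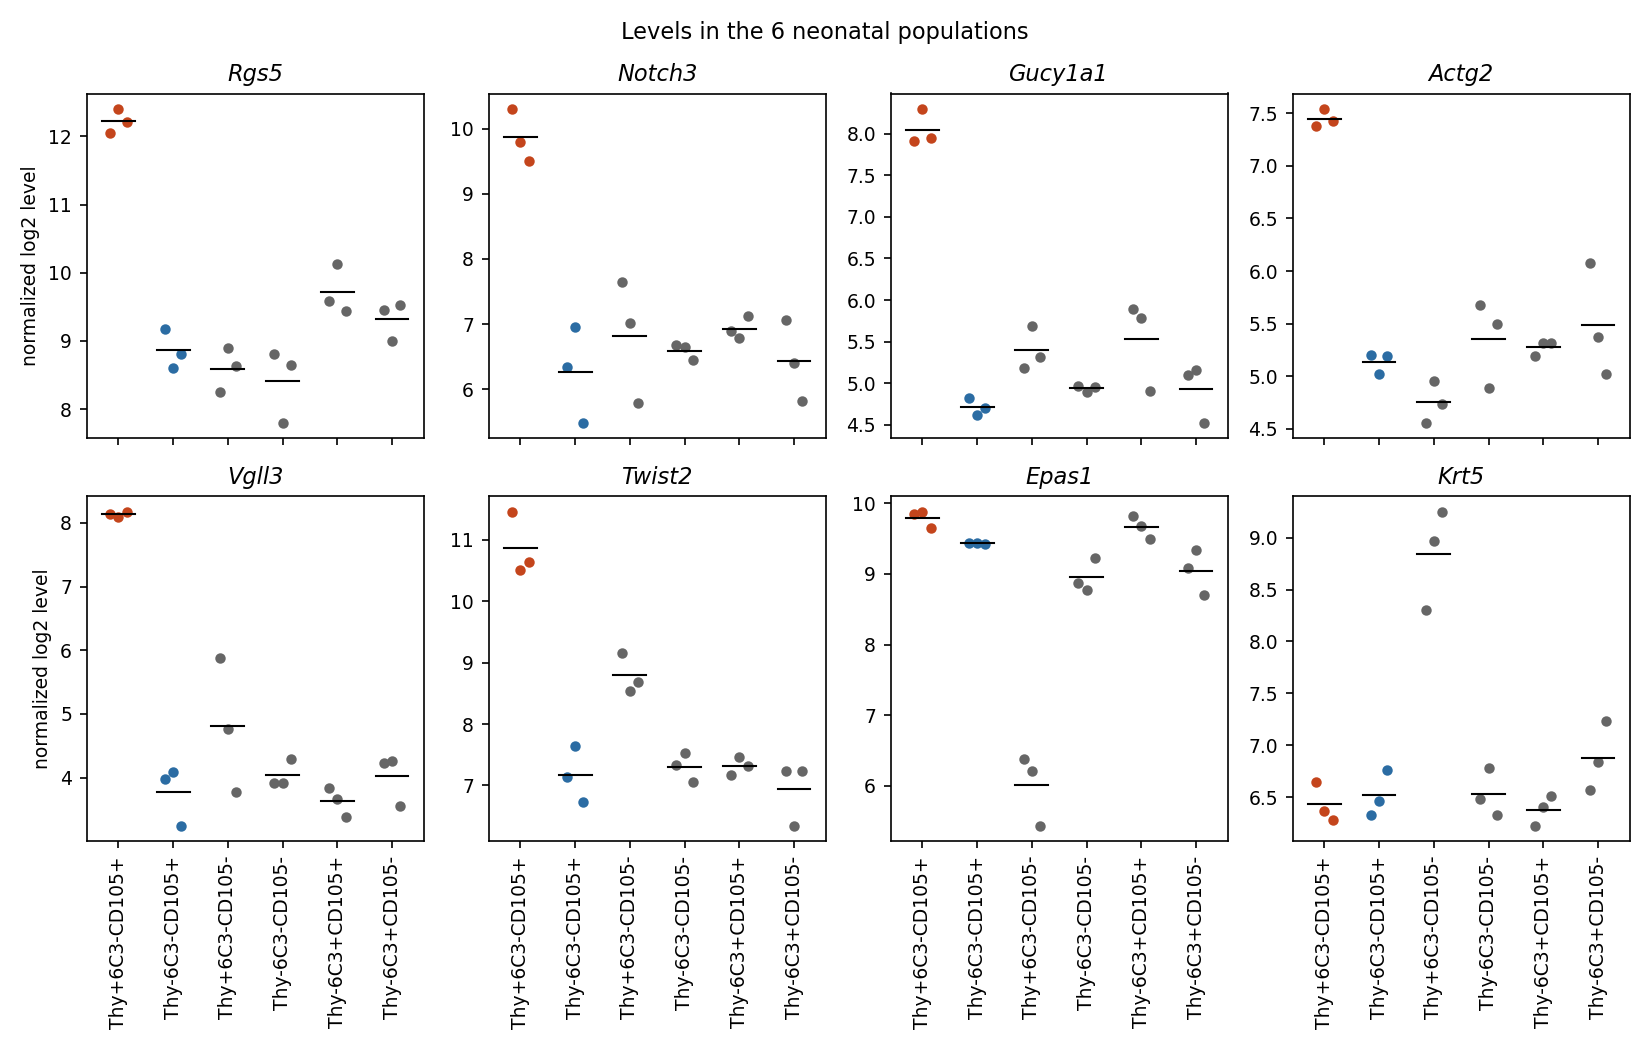
Normalized log2 level (y axis, scaled per gene) of 8 genes on each array of the 6 neonatal populations (x axis); horizontal marks are means. The 3 Thy+6C3-CD105+ arrays (red) lie above all others for Rgs5, Notch3, Gucy1a1, Actg2, Vgll3 and Twist2, while Epas1 and Krt5 stand apart in Thy+6C3-CD105- cells. All 8 genes were picked among those called in the difference of the steps. The share of all genes that stand apart in this way was not counted.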

How the data were processed

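RNA levels were read from the deposited log2 values of 19 Affymetrix arrays, 45101 probe sets each. The steps from scan to log2 value are not given in the sources used here; per the labels, scans were made with GCOS and RNA was amplified with RiboAmp. The table's medians ran from 5.60 to 6.02. Symbols came from the platform annotation (34945 probe sets with 1 symbol, 932 with several and 9160 with none). Control probe sets (64) were left out, values were quantile normalized over 19 arrays, and each of 18193 genes was read from its brightest probe set (by the mean of 18 neonatal arrays).

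A limma 3.58.1 model (R 4.3.3) with 1 mean for each of 6 populations and a trended prior was fitted to the 18 neonatal arrays, with Benjamini-Hochberg adjustment over all genes and a threshold of 0.05; the adult array entered no test. The number of arrays limits the precision. Replicates 2 and 3 of the Thy-6C3+CD105- population carry titles naming Thy+, and grouping by title was an alternative. Others changed the scaling, samples in the fit, probe sets, filter, prior, array weights, replicate block, poly-A control set or left out 1 array. The poly-A control sets, high and low, were split at the largest gap in the mean control signal of the neonatal arrays (6.19). They come from these data and are not a recorded batch. Same-numbered arrays of the compared populations deviated against each other (r from -0.56 to -0.20). These are deviations from means of 3 arrays, so they cannot tell whether such arrays shared a litter or a sort. The main fit did not pair arrays by number. Genes named are the 15 largest rises and falls without overlap of groups and with a higher mean above the median gene, called members of 40 lists (up to 8 a list, and those not called where needed), the antigens, markers of other cell types and up to 8 genes per direction in the difference of the steps; others are said to have been chosen after their values were seen. Members and lists were chosen with earlier results of these data known. The fit was also run on simulated data with independent noise on each array. Those data held no poly-A sets, so this run does not measure error in the calls given here. Promoters came from RefSeq (GRCm38.p6).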

Additional observations from a re-analysis of the deposited data

Results flagged for a closer look

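The values below stand out because the Thy step differed between CD105+ and CD105- cells by a test of that difference in limma. Each is the log2 step in CD105+ cells minus that in CD105- cells with its standard error, and the steps are given in that order. Such a difference was called for 49 genes, of which 27 are named. The arrays of high poly-A control signal alone, an alternative counted below, held only replicate 1 of Thy-6C3-CD105- cells and could not decide this difference. Control signal was also unbalanced between the populations of the CD105- step.

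Vgll3 was at 3.60 ± 0.52. Among genes known from the vessel wall, Notch3 was at 3.38 ± 0.60 and Hey2 at 2.05 ± 0.26. Rgs5 was at 3.18 ± 0.38, Gucy1a1 at 2.88 ± 0.34, Kcnj8 at 2.00 ± 0.31, Mcam at 1.65 ± 0.30 and Higd1b at 1.70 ± 0.29. The contractile genes Actg2, Myh11 and Tagln were at 2.91 ± 0.34, 2.63 ± 0.40 and 1.62 ± 0.33. Esam was at 2.06 ± 0.26. Tagln, Mcam and Higd1b were chosen after their values were seen. Of these, Actg2 had a rise of 2.31 ± 0.24 in CD105+ cells and a step of -0.60 ± 0.24 in CD105- cells, and Myh11 had 1.80 ± 0.28 and -0.83 ± 0.28.

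Of the signalling genes, Apcdd1 was at 1.51 ± 0.25 and called under 23 of 24 alternatives, and Rspo1 was at 1.49 ± 0.30 and called under 5 of 23. Apela, the apelin receptor ligand, was at 3.35 ± 0.50, with a step of 2.14 ± 0.36 in CD105+ and -1.21 ± 0.36 in CD105- cells. Twist2 was at 2.20 ± 0.43, the protease Adamts20 at 2.22 ± 0.39 and the leucine-rich membrane protein Lrrn1 at 2.64 ± 0.51. Fabp7, a fatty acid-binding protein of glia, was at 2.06 ± 0.36 although it fell in both steps (-0.996 ± 0.25 in CD105+ and -3.06 ± 0.25 in CD105- cells); its call in the CD105+ step was lost without Thy+6C3-CD105+ replicate 1 (-0.89, adjusted p = 0.1), Thy-6C3-CD105+ replicate 1 (-0.82, adjusted p = 0.12) and 2 other arrays.

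The remaining genes were not called in the step among CD105+ cells and were chosen after their values were seen. Epas1 was at 3.31 ± 0.33, Shox2 at 2.80 ± 0.47 and F13a1, a coagulation factor made by macrophages, at 2.83 ± 0.53. Below 0 were Krt15 at -3.23 ± 0.64, Laptm5 at -3.18 ± 0.64, Krt5 at -2.40 ± 0.35, Krt14 at -2.10 ± 0.38 and the heat shock gene Hspb9 at -1.26 ± 0.25. In CD105- cells the steps of these genes with values below 0 were 2.75 ± 0.45, 2.29 ± 0.45, 2.31 ± 0.25, 2.09 ± 0.27 and 1.13 ± 0.18. Of the 22 to 24 alternatives that gave a value, Rspo1 was called under 5, Hspb9 and Laptm5 under 8, Tagln under 9, Krt15 and Lrrn1 under 10, Twist2 under 12, F13a1 and Krt14 under 14 and Mcam under 15; the other 17 genes were called under 19 to 23. Averaged over probe sets the difference moved by over 1.5 times for Apela (1.79), Epas1 (1.81), Gucy1a1 (1.73), Myh11 (1.38), Shox2 (1.43), Lrrn1 (0.85) and Laptm5 (-0.78), and for the last pair it was no longer called. Without shared probe sets Notch3 was at 1.23 and not called.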

How the results depend on the processing

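The 1211 genes called in the Thy step among CD105+ cells became 2889 with array weights and 761 with the arrays of high poly-A control signal alone; leaving out 1 array gave 781 to 1033, fewest without Thy-6C3-CD105+ replicate 3. The 263 called list genes became 204 to 241 when 1 array was left out. The 49 genes called in the difference of the steps became 86 with arrays scaled to a common median, 77 with the mean of a gene's probe sets, 12 with genes above the median mean only, 645 with array weights and 0 with high poly-A arrays, where no gene passed; leaving out 1 array gave 25 to 104. The step among CD105- cells, 3271 genes, became 1182 in a fit of the compared populations only and 479 with high poly-A arrays, and 1549 to 4218 without 1 array. The 1915 rises and 1356 falls of the step among CD105- cells became 1642 and 2035 on the values as deposited, and 923 and 2644 with a common median. With the replicate block, 1239 genes were called in the step among CD105+ cells (751 higher, 488 lower) and 69 in the difference of the steps. Without shared probe sets 5 named genes turned sign: Acta2 to -0.16, Lama3 to -0.26, Mgst1 to -0.075, Panx3 to 0.10 and Ptger3 to -0.18, each then read from another probe set. Of 227 called named genes, 138 were called under each alternative that gave a value; 157 had a value under all 18, and 97 of these were called under each. With high poly-A arrays alone 52 of the 227 were not called. The causes of the other shifts were not tested. Leaving out arrays of the CD105- populations was chosen after seeing the data.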
